A study of Mus musculus with 4 samples.

Results

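The alpha and beta tubulin genes of brown adipose tissue (BAT) were examined in 10 genes, namely Tuba1a, Tuba1b, Tuba1c, Tuba4a and Tuba8 for alpha tubulin and Tubb2a, Tubb2b, Tubb4b, Tubb5 and Tubb6 for beta tubulin. They were found on the arrays through the RefSeq accession of each non-control probe, which gave 12 of 55681 probes and 10 of 20145 named genes. The list was drawn up because Tubb2a was among the genes with the lowest ratio of AP-treated to vehicle-treated mice, so the contrast of AP with vehicle is given for these genes as a description without a test.

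All 4 mice were male transgenic (Tg) mice of the C57/BL6N strain, 8 weeks old, that carried Fv2E-PERK under a promoter fragment of mouse aP2 (Fabp4). Fv2E-PERK joins the kinase domain of PERK, an enzyme that phosphorylates the translation factor eIF2α and so starts the integrated stress response (ISR), to a domain that pairs when the artificial ligand AP20187 (AP) binds. The vehicle group (n = 2) received ethanol, polyethylene glycol and Tween in water, and the AP group (n = 2) received AP at 1 ng/g as the labels state, while the study's text gives another dose. BAT was collected 12 h after the intraperitoneal injection. The aP2 promoter is also active in macrophages, and mice without the transgene were not analysed here. Each mouse had its own 1-color Agilent array. Markers of brown fat were present: Ucp1, the uncoupling protein of thermogenesis, and all 8 other brown adipocyte markers examined were well above background. On the log2 scale defined below, Ucp1 read 9.66 to 10.41. Elovl3 read 6.08 and -1.07 in vehicle replicates 1 and 2, and Dio2 -1.78 and 3.33 in AP replicates 1 and 2. Markers of other tissues, such as skeletal muscle, were also detected and are given below. The arrays were alike in signal over background, with 46.4 to 49.0% of spots well above background and 0 saturated spots. All arrays were on 1 slide and in 1 scan, but the vehicle and AP arrays occupied different positions, so position and treatment cannot be told apart.

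Microtubules are hollow polymers of alpha and beta tubulin heterodimers, and mammals encode several isotypes of each chain that mix within the same polymer. They serve as tracks for kinesin and dynein motors, which in adipocytes carry vesicles and other organelles, and they form the spindle of dividing cells. Cells adjust the supply of tubulin partly through the mRNA itself. When free heterodimers accumulate, the factor TTC5 recognizes the nascent tubulin chain on the ribosome and its mRNA is degraded. Gamma tubulin seeds new microtubules, and the CCT chaperonin with the tubulin cofactors folds and assembles the heterodimer.

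Every tubulin gene of the list had a lower mean signal with AP than with the vehicle. Signals are on a log2 scale and relative to the 75th percentile of the non-control spots of an array, so that a spot at that percentile reads 0. The log2 ratio (the log2 fold change of the plots) is the mean of the AP arrays minus the mean of the vehicle arrays on this scale, with its standard error (SE) from limma. The median log2 ratio of the 10 genes was -1.14, or 2.21-fold lower with AP, against a median of -0.01 over all 24972 probes compared. The signals of the AP-treated mice lay below those of both vehicle-treated mice for 9 of 10 genes, which was the case for 20.4% of all probes. At least 2-fold lower were 7 of 10 genes, against 2% of all probes. The gene list was picked from this contrast, so nothing is read from these counts. By limma, 0 of 24972 probes (0%) passed an adjusted p of 0.05. Before adjustment 1515 had a p under 0.05, and 1478 did so by the methods' t-test. In whole tissue, fewer cells that carry a transcript and less transcript per cell cannot be told apart.

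**Figure D1:**
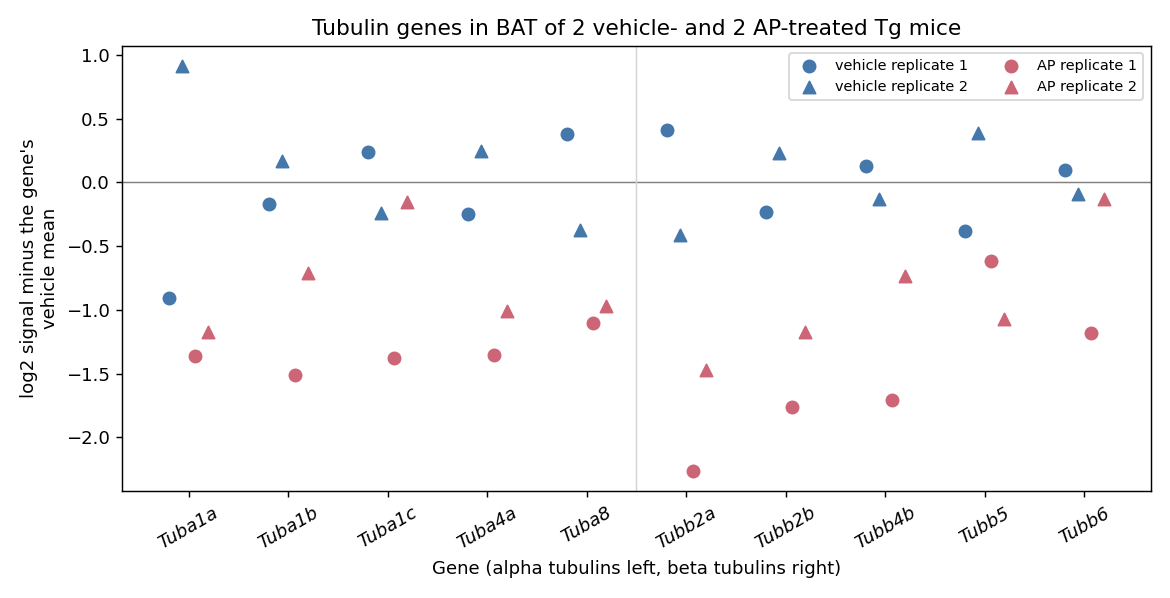
Signal of the 10 tubulin genes on each array, as log2 signal minus the mean of the vehicle-treated mice for that gene (y axis), with alpha tubulins on the left and beta tubulins on the right (x axis). Circles are replicate 1 and triangles replicate 2 of the vehicle (blue) and AP (red) groups, and only for Tuba1c does an AP point lie above a vehicle point.

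Tubb2a, a class II beta tubulin that is abundant in neurons, had the lowest log2 ratio. Probe A_51_P490023 read 5.90 in vehicle replicate 1 and 5.07 in vehicle replicate 2, against 3.22 in AP replicate 1 and 4.01 in AP replicate 2. Later values follow the same order of replicates. The groups did not overlap, and the lower vehicle-treated mouse exceeded the higher AP-treated mouse by 1.06. On the linear scale before scaling, the processed intensity was 7079 and 5342 with the vehicle and 1190.1 and 1915 with AP. The group means were 5.48 ± 0.58 (SD of 2 mice) and 3.62 ± 0.56, which gave a log2 ratio of -1.87 (SE 0.43) and a signal 3.65-fold lower with AP. Of all probes compared, 0.208% had a lower log2 ratio.

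The region before the transcription start of Tubb2a is shown because this gene had the lowest ratio of the list, and that of Tubb4b because its profile was the nearest to Tubb2a among the other 9 genes. The sequences are those of RefSeq on GRCm38.p6, each 250 bases 5′ to 3′ on the strand of the gene, ending at the base before the start. Both genes lie on the minus strand, at chr13:34078009-34078258 for Tubb2a and chr2:25224703-25224952 for Tubb4b, and neither stretch overlaps an annotated gene. Capitals mark matches on either strand to TGACGTCA (the CRE palindrome bound by CREB and ATF family dimers), TATAAA (the TATA box), CCAAT and GGGCGG (the GC box).
Tubb2a: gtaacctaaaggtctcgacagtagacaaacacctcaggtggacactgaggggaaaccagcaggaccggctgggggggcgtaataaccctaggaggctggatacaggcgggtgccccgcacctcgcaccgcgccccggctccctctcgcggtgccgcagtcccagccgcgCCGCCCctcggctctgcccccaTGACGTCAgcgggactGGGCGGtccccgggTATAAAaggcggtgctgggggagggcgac
Tubb4b: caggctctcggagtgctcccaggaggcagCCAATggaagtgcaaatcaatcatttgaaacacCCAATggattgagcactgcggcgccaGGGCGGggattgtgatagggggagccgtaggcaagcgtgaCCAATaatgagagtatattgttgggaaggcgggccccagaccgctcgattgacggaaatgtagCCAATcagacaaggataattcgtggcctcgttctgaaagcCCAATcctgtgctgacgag

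These 2 stretches are built differently. The Tubb2a sequence has a CRE beginning 59 bases and a TATA box beginning 29 bases before the start, and its GC content was 68.4%. The Tubb4b sequence holds 5 CCAAT motifs on the strand of the gene, no CRE and no TATAAA, and its GC content was 54.4%. RefSeq promoters were matched for 8 of the 10 genes, not for Tubb2b and Tubb6. Of these 8, the CRE was found only in Tubb2a (1.55% of 32851 promoters of this length hold it) and so was TATAAA (12.4%). CCAAT was found in 4 (33.8% of all promoters), namely Tuba1a, Tuba1c, Tubb4b and Tubb5. GGGCGG was found in 5 (32.7%), namely Tuba1a, Tuba1b, Tuba4a, Tubb2a and Tubb4b. Among the motifs searched first, the composite of ATF4 and CEBP written as TGATGNAAN (3.44%) and the E2F-like TTTGGCGC (0.417%) and TTTCCCGC (0.895%) were in 0 of the 8. A match is a string of letters and not a binding site, and the CRE, TATA, CCAAT and GC box motifs were chosen after the sequences had been read.

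Tubb2b, the other class II beta tubulin and a close relative of Tubb2a, had the next lowest value. Its brighter probe read -0.27 and 0.19 on the vehicle arrays, against -1.80 and -1.21 on the AP arrays. This is a log2 ratio of -1.47 (SE 0.32), and the signal was 2.77-fold lower. Its second probe, at -2.64 and -2.04 with the vehicle and -3.43 and -3.24 with AP, gave a log2 ratio of -0.999 (SE 0.29). Both probes were well above background on all 4 arrays and had no overlap between the groups, but they were dim: the brighter one had a processed intensity of 36.6 to 181. With normexp background correction the log2 ratio of Tubb2b was -0.82. Tubb2a and Tubb2b are near neighbours on chromosome 13, with 1 annotated gene between them.

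Tubb4b, a class IV beta tubulin found in most tissues, had a log2 signal of 6.82 and 6.56 with the vehicle and 4.99 and 5.96 with AP. The AP-treated mice differed from each other by 0.97 and both lay below the vehicle-treated mice, with a log2 ratio of -1.22 (SE 0.39). Tubb5, the class I beta tubulin of most cell types, was at 4.35 and 5.11 with the vehicle and at 4.11 and 3.66 with AP. Its groups were separated by 0.23, and the log2 ratio was -0.84 (SE 0.35). Tubb6, a class V beta tubulin, was at 3.96 and 3.77 with the vehicle and at 2.68 and 3.73 with AP. AP replicate 2 reached nearly the level of the vehicle-treated mice, 0.04 below the lower of them, and the log2 ratio was -0.65 (SE 0.40).

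Tuba1b, the alpha tubulin that most proliferating and resting cells express, was measured by 2 probes. The brighter gave 8.12 and 8.46 with the vehicle and 6.78 and 7.58 with AP, for a log2 ratio of -1.11 (SE 0.35). The second probe had a log2 ratio of -1.22 (SE 0.34), so the probes differed by less than either SE. Tuba1a, the alpha tubulin that prevails in developing neurons, was at 4.34 and 6.16 with the vehicle and at 3.89 and 4.08 with AP. Its log2 ratio was -1.27 (SE 0.64), and the spread between the vehicle-treated mice, 1.82, exceeded it. Tuba1c, another member of this group of genes, was at 4.59 and 4.12 with the vehicle and at 2.98 and 4.20 with AP. Here AP replicate 2 lay above vehicle replicate 2, and the log2 ratio was -0.76 (SE 0.48). The 3 genes lie on chromosome 15, where Tuba1b and Tuba1a are adjacent and 4 genes separate Tuba1a from Tuba1c.

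Tuba4a, an alpha tubulin whose gene does not encode the final tyrosine of most alpha tubulins, had a log2 signal of 5.26 and 5.75 with the vehicle and 4.15 and 4.49 with AP. Its groups were 0.76 apart and its log2 ratio was -1.18, with the smallest SE of the list, 0.28. Tuba8, the most divergent alpha tubulin of the list, was at 6.06 and 5.31 with the vehicle and at 4.58 and 4.71 with AP. The AP-treated mice differed by only 0.13 for this gene, and the log2 ratio was -1.03 (SE 0.32).

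Alpha and beta chains were alike in size of difference, with medians of -1.11 for the 5 alpha tubulins and -1.22 for the 5 beta tubulins. The order by log2 ratio was Tubb2a, Tubb2b, Tuba1a, Tubb4b, Tuba4a, Tuba1b, Tuba8, Tubb5, Tuba1c and Tubb6. From Tubb2b on, neighbours in this order differed by at most 0.20, less than the SE of either gene. Tubb2a and Tubb2b differed by 0.40, less than the SE of Tubb2a but more than that of Tubb2b. Against the median of the other 9 genes, -1.11, Tubb2a was lower by 0.76 on the log2 scale, and the other 9 ran from -1.47 to -0.65. This gap moved with single mice. Leaving out vehicle replicate 2 made it -1.34, and leaving out vehicle replicate 1 made it -0.23, where Tuba1a, at -2.18, and Tubb2b, at -1.70, were lower than Tubb2a, at -1.46. Tubb2a minus the mean of the other 9 log2 signals was 1.09 and 0.03 for the vehicle arrays and -0.37 and -0.12 for the AP arrays, so the vehicle-treated mice differed in it by more than vehicle replicate 2 differed from either AP-treated mouse.

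**Figure D2:**
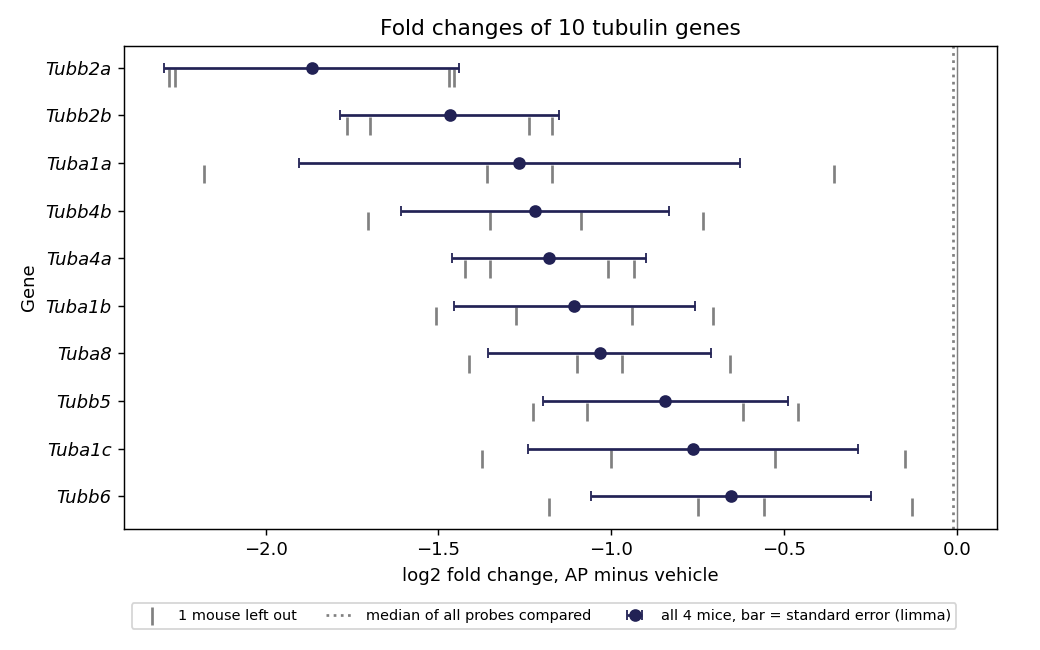
Log2 ratio of AP minus vehicle (x axis) for each tubulin gene (y axis), with points and bars for the value and SE from all 4 mice and grey ticks for the value with 1 mouse left out. All ticks lie below 0, from -2.28 for Tubb2a to -0.13 for Tubb6, and the dotted line is the median of all probes, -0.01.

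With each mouse left out in turn, all 10 genes kept a log2 ratio below 0, and the median of the list ran from -1.37 to -0.97. Set against vehicle replicate 1 alone (without vehicle replicate 2) the median was -0.97 and set against vehicle replicate 2 alone it was -1.25. Several single values moved by over 1.5 times. Without AP replicate 1, Tubb6 was -0.13, Tuba1c -0.15, Tuba1b -0.71 and Tubb4b -0.73. Without AP replicate 2, Tubb6 was -1.18 and Tuba1c -1.37. Without vehicle replicate 2, Tuba1a was -0.36 and Tubb5 -0.46, and without vehicle replicate 1, Tuba1a was -2.18 and Tuba8 -0.66. Tubb2a, Tubb2b and Tuba4a moved by less than 1.5 times, and Tubb2a ran from -2.28 to -1.46.

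Differences between mice of the same group were not used to choose the genes. AP replicate 2 was higher than AP replicate 1 for 9 of 10 genes, with a median of 0.69 on the log2 scale, a range of -0.45 to 1.22 and Tubb5 as the exception. Tuba1c and Tubb6 differed by at least 2-fold, which 5.35% of all probes did in this direction. Over all probes, 51.3% were higher in AP replicate 2 and the median difference was 0.01. The AP-treated mice thus differed from each other in most tubulin genes, and AP replicate 1 was the lower. Between the vehicle-treated mice, 5 of 10 genes were higher in replicate 2, with a median of 0.07 and a range of -0.82 for Tubb2a to 1.82 for Tuba1a, against 39.4% of all probes and a median of -0.11. Tuba1a was at least 2-fold higher in vehicle replicate 2, as were 4.93% of all probes. The isotypes did not move as a unit in these mice: Tubb2a, Tuba8, Tuba1c, Tubb4b and Tubb6 were higher in vehicle replicate 1, and Tuba1a, Tubb5, Tuba4a, Tubb2b and Tuba1b in vehicle replicate 2. The genes share their 4 arrays and are not independent of each other.

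**Figure D3:**
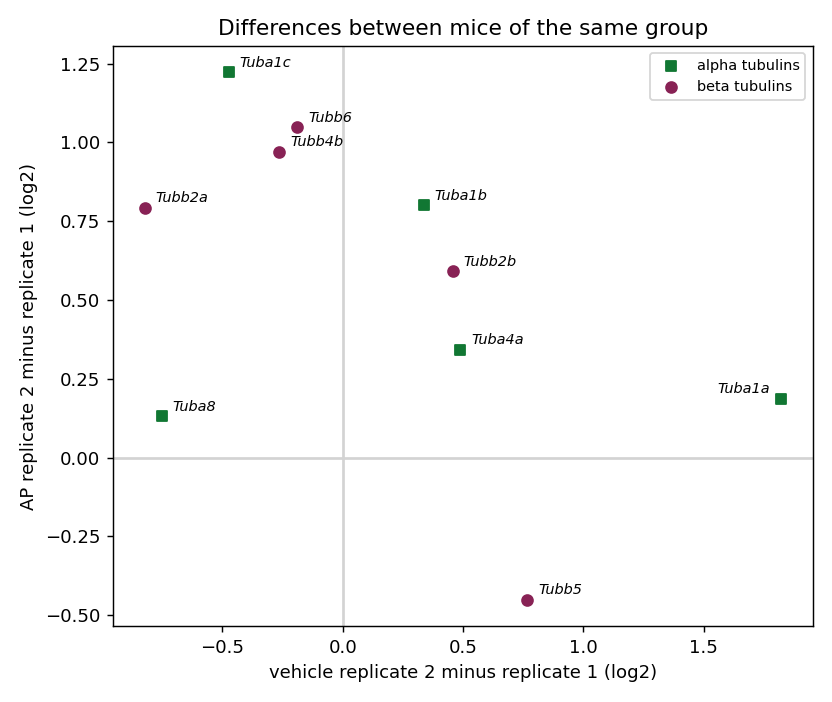
Log2 difference between replicate 2 and replicate 1 of the vehicle group (x axis) and of the AP group (y axis) for the 10 tubulin genes. Green squares are alpha and purple circles beta tubulins, and 9 of 10 lie above 0 on the AP axis while they are spread from -0.82 to 1.82 on the vehicle axis.

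The named gene with the profile nearest to that of Tubb2a over the 4 arrays was Tubb2a-ps2, a transcribed pseudogene of Tubb2a. It read 1.63 and 0.86 with the vehicle and -0.57 and 0.02 with AP, and after centering the root mean square distance to Tubb2a was 0.19 on the log2 scale, the smallest of 12128 genes. It is measured by a probe of its own, but the sequences of the probes were not used here, and how far RNA of Tubb2a binds that probe was not tested. The same holds among the isotypes, whose coding sequences are much alike. Next in distance were Proser2 and Tmem179, both at 0.26. Of the tubulin genes, Tubb4b was nearest to Tubb2a at 0.38 and Tuba1a farthest at 1.00. This likeness contains the difference between the groups and rests on 4 arrays.

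The log2 ratios of other tubulin genes ran from -0.79 to 0.67. Of 10 further tubulin genes, 7 passed the filter of being well above background in either group, and their median log2 ratio was -0.10. By limma, 0 of 7 passed the adjusted threshold. Tubb4a, a beta tubulin typical of brain, was at 0.37 and 0.86 with the vehicle and at -0.05 and -0.30 with AP, with a log2 ratio of -0.79 (SE 0.27) and an adjusted p of 0.80 by limma. The neuronal Tubb3 had a log2 ratio of 0.05 (SE 0.45) and Tuba3b, an alpha tubulin of testis, of -0.10 (SE 0.20). The gamma tubulins Tubg1 and Tubg2 had values of -0.05 (SE 0.31) and -0.36 (SE 0.25). Tubd1 and Tube1, the delta and epsilon tubulins of centrioles, had values of -0.30 (SE 0.21) and 0.67 (SE 0.26). Dim probes measured Tuba3b, whose value is the median, Tubb3 and Tube1. Their processed intensities were 16.7 to 23.1, 14.0 to 37.3 and 16.9 to 37.1, against 96.5 to 289 for Tubb4a. Tuba3a, Tubal3 and the platelet isotype Tubb1 were well above background on 0 arrays.

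The lists of genes that fold, nucleate or modify tubulin, bind microtubules or move along them had medians between -0.11 and 0.04. Over the 9 lists outside the 10 tubulin genes, 0 genes passed an adjusted p of 0.05 by limma (0% of all probes did). The 24 tubulin folding genes (cofactors, prefoldin and CCT subunits) had a median log2 ratio of 0.04, with 16 above and 8 below 0 and none of the 24 past 2-fold. Of all probes, 51.3% were below 0, 2% at least 2-fold lower and 2.32% at least 2-fold higher. The 18 measured genes of the gamma tubulin ring and its adaptors had a median of 0.02. The 12 genes of tubulin mRNA autoregulation, which are Ttc5, Scaper and subunits of the CCR4-NOT deadenylase, had a median of 0.10, and Ttc5 itself, the factor that reads the nascent chain, had a log2 ratio of -0.16 (SE 0.20). The signs of these 3 medians depended on the scaling, since with the authors' log2 table they were -0.12, -0.15 and -0.06, where the median of all probes was -0.17.

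The 16 measured enzymes of tubulin modification had a median of -0.11, the 27 microtubule-associated proteins of -0.11 and the 24 subunits of dynein, dynactin and interphase kinesins of -0.10. Without adjustment, 1 gene of the modification list and 1 of the motor list had a limma p under 0.05, and both were lower with AP. Such a p with a lower value was found for 2.77% of all probes and with a higher value for 3.3%. They were Agbl4, a carboxypeptidase that shortens glutamate chains on tubulin, and Dynll1, a light chain of dynein. Dynll1 was at -1.73 and -1.41 with the vehicle and at -2.48 and -2.62 with AP, for a log2 ratio of -0.98 (SE 0.23) with an adjusted p of 0.80 by limma. Agbl4 had a log2 ratio of -0.69 (SE 0.24), also with an adjusted p of 0.80 by limma. Map7, which recruits kinesin to microtubules, was the 1 gene of these 3 lists with a 2-fold higher value, at 1.15 (SE 0.61), as were 2.32% of all probes, and it is named after its value was seen. It read -1.57 and -3.31 with the vehicle and -1.37 and -1.21 with AP, so only vehicle replicate 2 stood apart. The probe of Map7 was dim, with a processed intensity of 15.9 to 51.1. Those of Dynll1 (19.3 to 59.7) and Agbl4 (34.1 to 82.2) were dim too. Of 20 genes of actin and other filaments, 14 had a log2 ratio below 0, as had 51.3% of all probes, with a median of -0.14. Of 18 mitotic spindle genes, 5 were measured, with a median of -0.67. Of these 5, Kif22 and Prc1, which act on chromosomes and the central spindle in mitosis, had values at least 2-fold lower, against 2% of all probes, and are named after their values were seen. Prc1 read -3.13 and -0.34 with the vehicle and -3.36 and -4.24 with AP, and Kif22 read -2.84 and -0.42 with the vehicle and -2.53 and -3.41 with AP. Both were high only in vehicle replicate 2. Prc1 was well above background on 2 of 4 arrays and passed the filter only through the vehicle group, so its difference was favored by the filter.

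**Figure D4:**
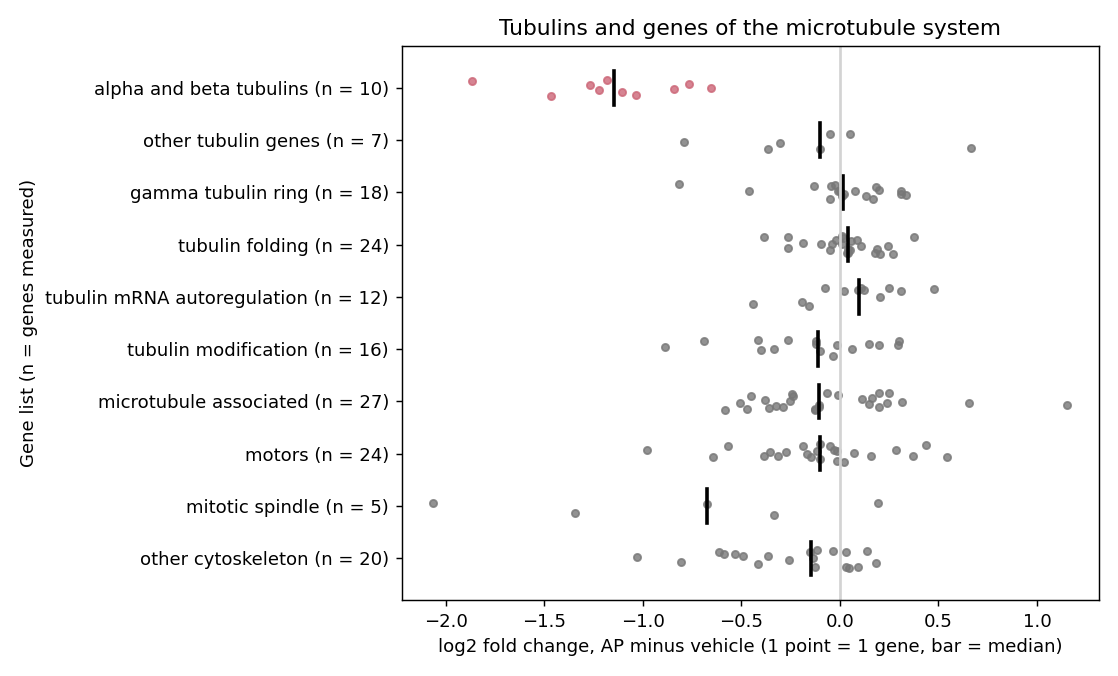
Log2 ratio of AP minus vehicle (x axis) for the genes of each list (y axis, with the number of genes measured), where a point is a gene and a black bar the median. The 10 alpha and beta tubulins (red) have a median of -1.14, and the medians of the other lists lie between -0.67 for the 5 mitotic spindle genes and 0.10.

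Markers of other cell types moved between single mice. The summed signal of the 10 tubulin genes, in units of the 75th percentile, was 637 and 711 on the vehicle arrays and 239 and 380 on the AP arrays. Skeletal muscle genes (11 of 11 measured) summed to 60.7 and 1124 with the vehicle and to 710 and 393 with AP, so their lowest and highest arrays were both vehicle arrays, and 11 of 11 were highest in vehicle replicate 2. How many of all probes were highest in vehicle replicate 2 was not counted. The part of skeletal muscle in the tubulin values was not tested. Lymphocyte genes (5 of 11 measured) summed to 27.7 and 92.9 with the vehicle and to 33.5 and 31.3 with AP, and macrophage genes (6 of 8 measured) to 32.5 and 40.3 with the vehicle and to 24.4 and 25.1 with AP. Cd68 and Cd163 of the macrophage list had no named probe well above background in both mice of a group.

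Proliferation genes (6 of 9 measured) summed to 11.2 and 17.8 with the vehicle and to 14.3 and 12.5 with AP, and 5 of 6 were highest in vehicle replicate 2. Pcna made up most of each sum, with a log2 ratio of 0.10 (SE 0.24). The median log2 ratio of the 6 genes was -1.06, against -1.14 for the tubulin genes. Of the tubulin genes, 5 of 10 were highest in vehicle replicate 2, and without that mouse their median was -0.97. How far the proliferation median rests on that mouse was not tested. Of the 6 proliferation genes, 3 were at least 2-fold lower, against 2% of all probes. One of the 3, Ccnb1, passed the filter only through the vehicle group. Mki67, which marks cycling cells, was at -2.69 and 0.50 with the vehicle and at -2.58 and -2.63 with AP. The high value of Tuba1a in vehicle replicate 2 went with these markers and with the skeletal muscle and lymphocyte genes. It also went with the white adipose genes Nnat (3.23 there against -0.40 in vehicle replicate 1) and Mest (0.85 against -3.37). Most macrophage genes were highest there too. Among the marker lists, the skeletal muscle genes had the largest median rise from vehicle replicate 1 to vehicle replicate 2. Which of these lists, if any, the Tuba1a value follows was not tested. Tubb2a, Tuba8, Tuba1c, Tubb4b and Tubb6, in contrast, were lower in that mouse than in vehicle replicate 1. Brown adipocyte genes (9 of 9 measured) summed to 6537 and 4079 with the vehicle and to 5131 and 5958 with AP. Of this list Adrb3, the beta-adrenergic receptor of adipocytes, was at 6.80 and 6.70 with the vehicle and at 5.33 and 5.77 with AP, with a log2 ratio of -1.20 (SE 0.25), while the median of the list was 0.09. Genes of neurons and glia (7 of 10 measured), listed because Tubb2a, Tubb2b and Tuba1a are abundant in neurons, summed to 83.7 and 94.0 with the vehicle and to 72.9 and 57.6 with AP. Their median log2 ratio was -0.29, and Snap25, a synaptic fusion protein, had -0.90 (SE 0.30) with no overlap between the groups. Genes of adipocytes in general (5 of 5) summed to 2549 and 1990 with the vehicle and to 2249 and 2360 with AP. White adipose genes (5 of 5) summed to 47.2 and 56.3 with the vehicle and to 33.7 and 37.8 with AP. Their median log2 ratio was -1.06, with Mest, Nnat and Lep at least 2-fold lower, against 2% of all probes. Within the vehicle group, this list was higher in replicate 2 than in replicate 1 by a median of 1.41. Lep, which encodes leptin, had -1.38 (SE 0.51) with no overlap, but did not pass the adjusted threshold by limma. The study reports leptin expression as unchanged by ISR activation in these mice. Itgam of the macrophage list had -0.88 (SE 0.30), also with no overlap, and the median of that list was -0.32. For the lymphocyte genes the median was -0.65. Platelet and erythroid genes (6 of 7 measured) had a median of -0.48, with 6 of 6 below 0, as were 51.3% of all probes. They summed to 552 and 359 with the vehicle and to 276 and 389 with AP. Medians were -0.08 for 5 endothelial genes and -0.21 for 5 genes of fibroblasts and preadipocytes. Over these marker lists, 0 genes passed the adjusted threshold by limma. The part of these cell types in the tubulin values was not tested.

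**Figure D5:**
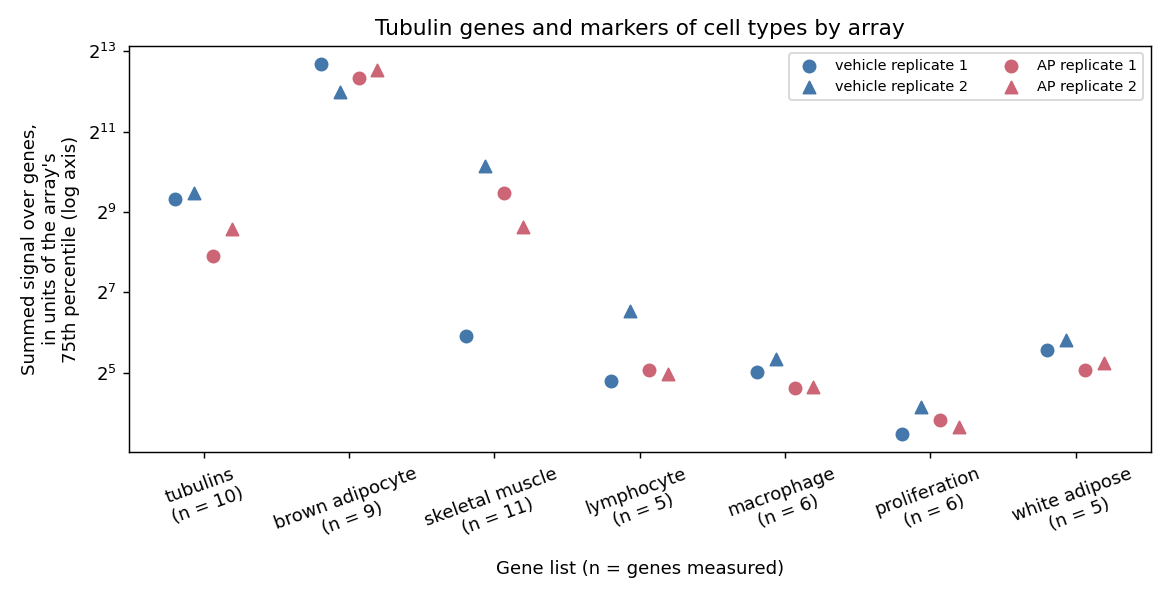
Summed signal of the 10 tubulin genes and of marker lists of cell types (x axis, with the number of genes measured) on each array, in units of the 75th percentile of the array on a log axis (y axis). Blue symbols are vehicle and red symbols AP, with circles for replicate 1 and triangles for replicate 2, and both AP arrays (239 and 380) lie below both vehicle arrays (637 and 711) for the tubulin genes.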

How the data were processed

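Total RNA of BAT, 150 ng per mouse, was labeled with Cy3 and hybridized to SurePrint G3 Mouse arrays. The authors extracted the scans with Agilent Feature Extraction 10.7.1.1 and deposited the intensity of each spot on a linear scale, background-subtracted and not normalized between arrays. A table of log2 values from the authors, whose centering is not stated, was deposited as well. Differences between arrays in it correlated with those of the log2 intensities at a Pearson's r of at least 0.9998 over 24867 probes.

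From the intensities, the log2 processed signal minus the 75th percentile of non-control spots (118.9 and 158.7 for the vehicle, 127.6 and 118.5 for AP) was computed. Control and outlier-flagged spots were left out, and spots of a probe were averaged. The filter kept probes that both mice of a group showed well above background, 24972 of 55681, among them all 12 tubulin probes. The model was fitted in R 4.3.3 by limma 3.58.1 (lmFit, eBayes) with Benjamini-Hochberg adjustment and a threshold of 0.05. The number of arrays, 2 per group, limits the precision. For a single gene, the smallest two-sided p of an exact permutation test is 0.333 here. The labels do not say whether a group's samples differ beyond the mouse, so p values measure the spread between these samples.

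Accessions were named through a RefSeq gene table of GRCm38.p6, which gave a symbol to 26582 probes. The design of the arrays uses another build, so array coordinates were not used. For a gene with several probes, the brightest was taken. The tubulin genes and the lists were chosen with earlier results of these data known. The text names all 10 tubulin genes, other tubulin genes, up to 3 genes of each other pathway list that were well above background on all arrays, not overlapping between groups and under an unadjusted p of 0.05, and the 3 genes nearest in profile to Tubb2a. Some markers are named because a tubulin value is set beside them. Others, among them Adrb3, Snap25, Lep, Itgam, Elovl3 and Dio2, are named outside these rules, after their values were seen. The same holds for Map7, Kif22 and Prc1. The same-numbered mice are not stated to be paired, and their deviations correlated at -0.13, so no block was used. Alternatives were normexp with an offset of 50 on the median spot signal, quantile normalization, scaling to the array median, no filter or a stricter one on dim probes, the authors' log2 table, a trend of the variance, a replicate block, leaving out each mouse, a gene's mean over its probes, and the methods' t-test.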

Additional observations from a re-analysis of the deposited data

How the results depend on the processing

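Of 15 alternatives, 6 change only the filter or the test and cannot move a log2 fold change. Under the other 9, all 10 tubulin genes had a log2 fold change below 0. With all mice, the median of the list ran from -1.31 with the authors' log2 table to -1.05 with the median of each array, and Tubb2a from -2.03 to -1.77. With a mouse left out, the list's median ran from -1.37 to -0.97 and the gap of Tubb2a to the median of the others from -1.34 to -0.23. Over all probes, 0 passed the adjusted threshold under each of 14 alternatives by limma or the methods' t-test, and 1004 to 2613 had an unadjusted p under 0.05. With 2 mice per group this is no sign of stability. Tubb2b, with dim probes, was -0.82 with normexp, which adds an offset and starts from the median spot signal. Why its value moved was not tested.

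The replicate numbers are not stated to pair the mice. A replicate block cannot move a log2 fold change in this balanced design (Tubb2a, -1.87), and with it 0 probes passed. The crossed pairing, chosen after the data were seen, also gave 0 probes.

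With the authors' log2 table, in which the median over all probes is -0.17, the medians of tubulin folding (-0.12), the gamma tubulin ring (-0.15) and tubulin mRNA autoregulation (-0.063) changed sign. Leaving out 1 mouse gave medians of -0.064 to 0.14 for folding, -0.012 to 0.070 for the ring and -0.066 to 0.24 for autoregulation, and of -0.17 to 0.077 for microtubule-associated genes, so all 4 took both signs. Leaving out a mouse takes the lone mouse of a group to vary like the other group. A block for slide or scan had only 1 level and was not run. For moves of values between settings, the cause was not tested. Precision is limited by 2 arrays per group.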
